A study of Mus musculus with 4 samples.

Results

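The SNAIL genes (Snai1, Snai2, Snai3), TWIST genes (Twist1, Twist2) and ZEB genes (Zeb1, Zeb2), with the homeobox gene Prrx1, were examined in RNA-Seq of mouse brain cells from a model of inducible, endothelial Mgp deletion. These 8 transcription factor genes were taken by symbol from the 24873 genes of the deposited table, and all 8 were listed. The labels give every mouse the genotype Cdh5cre;Mgpflox/flox: a tamoxifen-activated Cre recombinase driven by the promoter of VE-cadherin (Cdh5), which is active in endothelial cells, and floxed alleles of Mgp, the gene of matrix Gla protein, an inhibitor of bone morphogenetic proteins (BMPs). Both groups carried Cre and the floxed alleles. Only the tamoxifen group was given the drug, at 75 mg/kg daily for 5 days starting at 10 weeks of age, so that an effect of the drug and an effect of the deletion cannot be told apart. Cells were isolated on day 9, and each library was made from cells pooled from 3 mice, which left 2 control and 2 tamoxifen libraries.

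The series text and the methods describe the cells as CD31+CD45-, whereas the sample labels name a tdTomato reporter. Table columns are headed C or A with a number. The C columns were taken as the controls and the A columns, for AVM (arteriovenous malformation), as the tamoxifen libraries; no label contains an A, and this reading was made with values of these data known.

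SNAIL and ZEB proteins are zinc finger repressors that bind E-boxes, short DNA elements with the core CACCTG, whereas TWIST proteins are basic helix-loop-helix factors that pair with E proteins and bind other E-boxes. In epithelial-mesenchymal and endothelial-mesenchymal transition they switch off genes of cell junctions and cell identity, such as E-cadherin, and they act with corepressor complexes that modify histones. Several are also made outside transitions, for example ZEB2 in the oligodendrocyte lineage, the neural crest and blood cells, and TWIST and PRRX1 in fibroblasts.

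The libraries held between 35387438 and 49799321 reads on genes, recovered from the deposited normalized counts, in which the authors had divided the reads of each library by one factor. A gene with no reads could have up to 3 reads in a library, equal to between 2.16 and 4.11 normalized counts. Normalized counts of Mgp were 1094 and 1352 in the controls, and 945 and 909 with tamoxifen. The tamoxifen libraries lay below the controls, but Mgp was not called (log2 fold change -0.39, SE 0.18; limma with Benjamini-Hochberg (BH) adjustment, adjusted p = 0.0986). Pecam1, the gene of CD31, had 83681 and 88796 normalized counts in the controls and 15987 and 8973 with tamoxifen, and all 13 endothelial markers tested were called lower. All endothelial markers were thus lower in the libraries taken as tamoxifen, and no loss of Mgp RNA was shown here. By real-time PCR the study reported a fall of Mgp in cerebral endothelial cells after tamoxifen. That fall began before day 9, the day of these libraries, and reached a small part of the control level at a later day. The difference from these libraries was not tested. Since each library holds the RNA of many cells, fewer cells of a type and less RNA per cell cannot be told apart.

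A gene was called when its adjusted p was under 0.05 and its log2 fold change, tamoxifen minus control on log2(normalized count + 1), was over 1 in size. Changes of genes with few reads come out too small on this scale. Tested were the 20485 genes whose mean over the libraries reached 10 normalized counts, and of these 28.6% were called higher, 16.0% lower and 44.7% in either direction, and the libraries of the groups did not overlap for 82.3%. Each of the 8 genes was tested. Snai1, Twist1, Twist2, Zeb2 and Prrx1, or 5 of 8, were called higher, Snai2 was called lower, and Snai3 and Zeb1 were not called. Their median log2 fold change was 2.81, against 0.05 over all tested genes. Their libraries did not overlap between groups for 7 of 8 genes, which is near the share over all tested genes. Twist1, Twist2 and Zeb2 stand in a heatmap that the study drew from these libraries, and Snai1 was measured by the study with other assays, which means that the direction of these 4 genes here does not count as independent evidence.

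**Figure D1:**
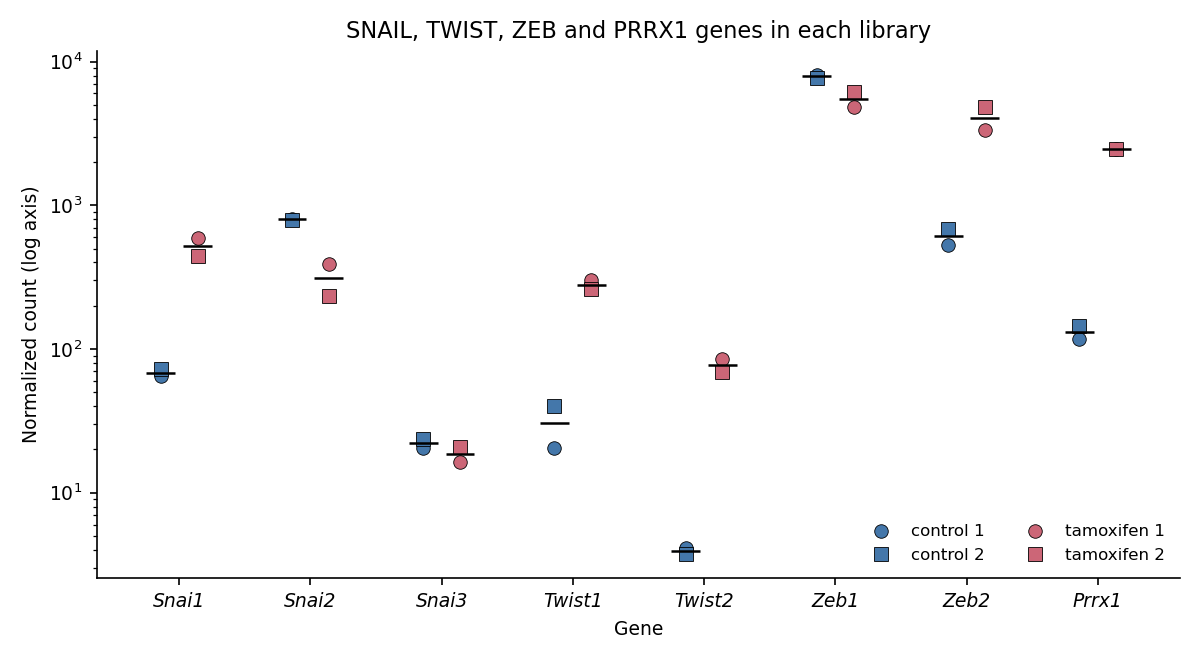
Normalized counts of the 8 genes (logarithmic axis) in control libraries (blue) and tamoxifen libraries (red), with circles for library 1, squares for library 2 and black bars for group means. Snai1, Twist1, Twist2, Zeb2 and Prrx1 are higher in both tamoxifen libraries, Snai2 and Zeb1 are lower, and the groups overlap for Snai3.

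Snai1, the founding SNAIL repressor, lies on chromosome 2 from 167380113 to 167384734 on the plus strand of GRCm39. Its normalized counts were 64.4 and 72.6 in the controls, and 596 and 446 with tamoxifen. Both tamoxifen libraries were well above both controls, and the group means were 68.5 ± 5.81 and 521 ± 106 (SD, n = 2 each), a 7.61-fold difference. The log2 fold change was 2.90 (SE 0.32; limma with BH adjustment, adjusted p = 0.000211), with a range over 14 alternatives from 1.84 under quantile normalization to 3.36 with equal totals. SNAIL proteins can bind the promoter of Snai1 itself, and the RefSeq promoter window of Snai1, from 250 bases before to 50 after the start site (build GRCm38.p6, chr2:167537945-167538244, plus strand, GC content 70.0%), holds a single CACCTG whose first base lies at position -126 from the start site. The window is shown because no other factor with a window at hand held this motif, which is in capitals:
Snai1 promoter: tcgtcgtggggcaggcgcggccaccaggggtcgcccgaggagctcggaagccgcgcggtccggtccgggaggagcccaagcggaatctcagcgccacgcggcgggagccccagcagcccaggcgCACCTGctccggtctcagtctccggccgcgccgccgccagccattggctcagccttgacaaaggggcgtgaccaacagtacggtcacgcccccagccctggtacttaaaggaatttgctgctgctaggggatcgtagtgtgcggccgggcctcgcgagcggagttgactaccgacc
RefSeq windows were at hand for Snai1, Twist1, Twist2, Zeb2 and Prrx1, so 1 of 5 genes held CAGGTG or CACCTG, the same motif read on either strand. Among all 27025 genes with a window, 22.6% held it. Further E-boxes that TWIST pairs can bind, CATATG and, in either orientation, CATCTG, were found in none of these 5 genes, against 4.48% and 19.2% of all genes. A match in letters is a description and not a binding site.

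Snai2, the gene of SLUG, went the opposite way. By costaining at a later day, the study reported SLUG in CD31+ endothelial cells of the malformation. That is protein at another time, and the difference from the RNA here was not tested. Snai2 lies on chromosome 16 from 14523425 to 14527252 on the plus strand. Control libraries had 799.9 and 794.8 normalized counts and tamoxifen libraries 389 and 235. The controls differed little from each other, and both tamoxifen libraries were below them, with means of 797 ± 3.65 and 312 ± 109 (SD, n = 2 each) and a ratio of 0.391. Snai2 fell by 1.40 on the log2 scale (SE 0.28; limma with BH adjustment, adjusted p = 0.00358). Its call was lost when libraries were rescaled to equal totals (log2 fold change -0.93, limma with BH adjustment, adjusted p = 0.0218, under the size limit) and without tamoxifen library 2 (-1.03, adjusted p = 0.0506).

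The change of Snai1 and Snai2 in opposite directions turned their ratio over. A ratio within a library does not depend on the factor by which that library was divided. The log2 ratio of Snai1 to Snai2 was -3.61 and -3.43 in the controls, and 0.61 and 0.92 with tamoxifen. In counts not divided by length, Snai1 thus had 0.0805 and 0.0913 of the normalized counts of Snai2 in the controls and 1.53 and 1.90 times those counts in the tamoxifen libraries. The difference of 4.29 on the log2 scale was between 4.14 and 4.45 with any 1 library left out. The exact two-sided permutation test gave p = 0.333, the smallest value that 2 libraries against 2 allow, for this ratio and the 2 others below.

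Snai3, a SNAIL gene expressed in lymphoid and muscle cells, was near the lower limit of the test. It lies on chromosome 8 from 123179188 to 123187472 on the minus strand. The controls had 20.6 and 23.8 normalized counts, from 15 and 19 reads, and the tamoxifen libraries had 16.3 and 20.9, from 15 and 29 reads. The groups overlapped, and no difference was detectable at this depth (log2 fold change -0.25, SE 0.56; limma with BH adjustment, adjusted p = 0.719). Summed over libraries, the ratio of tamoxifen to control was 0.855, with an exact binomial interval (95%, counting error only) of 0.534 to 1.38. The log2 fold change was 0.20 after rescaling to equal totals and -1.26 under quantile normalization (limma with BH adjustment, adjusted p = 0.0771).

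**Figure D2:**
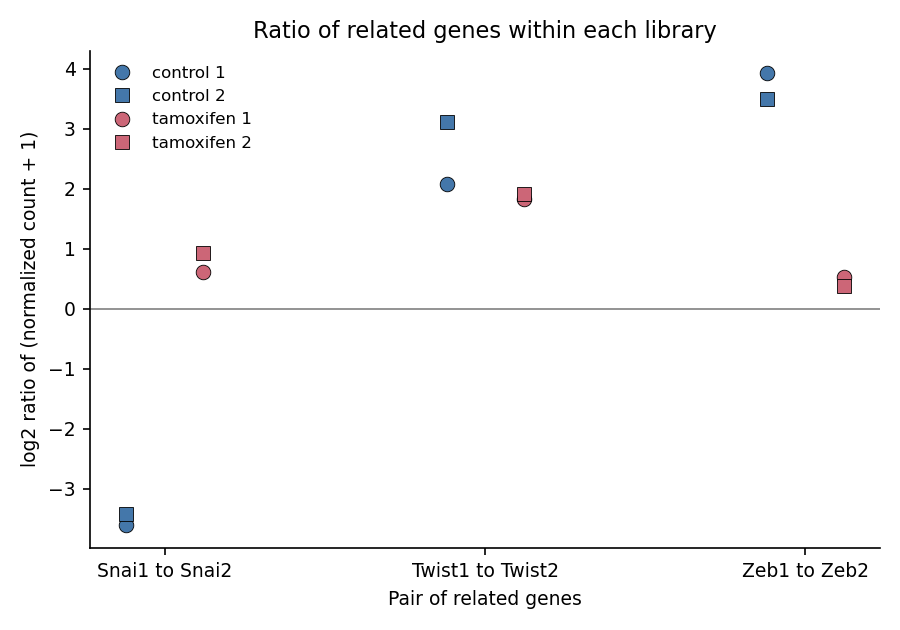
The log2 ratio of (normalized count + 1) of Snai1 to Snai2, Twist1 to Twist2 and Zeb1 to Zeb2 within each control (blue) and tamoxifen (red) library, with circles for library 1 and squares for library 2. Snai1 to Snai2 moves from about -3.52 to 0.77 and Zeb1 to Zeb2 from 3.71 to 0.45 on average, while Twist1 to Twist2 moves less, from 2.59 to 1.86.

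Both TWIST genes, which control the formation of mesoderm and connective tissue, were higher with tamoxifen. Twist1 lies on chromosome 12 from 34007645 to 34009828 on the plus strand, and had 20.6 and 40.1 normalized counts in the controls and 300.2 and 262 in the tamoxifen libraries. The controls differed 1.95-fold but stayed far below the tamoxifen libraries, with means of 30.3 ± 13.8 and 281 ± 27.3 (SD, n = 2 each). Twist1 rose by 3.24 on the log2 scale (SE 0.47; limma with BH adjustment, adjusted p = 0.000701). Under quantile normalization the log2 fold change was 2.14. Leaving out tamoxifen library 1 or 2 ended the call, with log2 fold changes of 3.14 and 3.34 and adjusted p-values of 0.0609 and 0.0618 (limma with BH adjustment).

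Twist2, also called Dermo1, was almost silent in the controls. It lies on chromosome 1 from 91729176 to 91796542 on the plus strand. Each control library had 3 reads, equal to 4.11 and 3.75 normalized counts, and the tamoxifen libraries had 78 and 96 reads, equal to 84.5 and 69.0. The ratio of the summed reads, corrected for the library factors, was 19.2 with an exact binomial interval of 8.63 to 52.9. Twist2 rose by 3.97 on the log2 scale (SE 0.56; limma with BH adjustment, adjusted p = 0.000648), and by 2.75 under quantile normalization. In GENCODE M39, Gm29100, an antisense RNA gene, shares 1484 exon bases with Twist2, and the strand setting of the counting is not given in the sources used here, so their reads may not be separated. Gm29100 had 1.37 and 0 normalized counts in the controls and 7.59 and 10.8 in the tamoxifen libraries, well under Twist2.

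Twist1 remained above Twist2 in every library, in counts and per kilobase of exon. Twist1 had 5.0 and 10.7 times the normalized counts of Twist2 in the controls and 3.55 and 3.79 times in the tamoxifen libraries. With the pseudocount of 1, the log2 ratio was 2.08 and 3.11 in the controls and 1.82 and 1.91 in the tamoxifen libraries. The difference, -0.73, rests on the 3 reads of Twist2 in each control and was -0.12 with a pseudocount of 5, so no change of the balance between the TWIST genes can be read from it.

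Zeb1, a zinc finger and homeodomain repressor of E-cadherin and of the miR-200 family, had the most normalized counts of the 8 genes in every library, and the highest group means per kilobase. It lies on chromosome 18 from 5591851 to 5775467 on the plus strand. Control libraries had 8105 and 7705 normalized counts, and tamoxifen libraries had 4845 and 6193. Both tamoxifen libraries were lower, with means of 7905 ± 283 and 5519 ± 953 (SD, n = 2 each), a ratio of 0.698. The log2 fold change of -0.53 (SE 0.18; limma with BH adjustment, adjusted p = 0.0333) passed the adjusted p but not the size limit, and it came to -0.06 with equal totals and to -0.08 under quantile normalization. In 8 of 14 alternatives the adjusted p stayed under 0.05, with a range from 0.0225 to 0.797 (limma with BH adjustment, edgeR or DESeq2).

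Zeb2, the relative of Zeb1 that is also called SIP1, rose strongly. It lies on chromosome 2 from 44873644 to 45007464 on the minus strand. The controls had 533 and 682 normalized counts, and the tamoxifen libraries had 3344 and 4794. No tamoxifen library came near a control, and the means were 607 ± 106 and 4069 ± 1026 (SD, n = 2 each), a 6.70-fold difference. Zeb2 rose by 2.73 on the log2 scale (SE 0.22; limma with BH adjustment, adjusted p = 6.22e-05), and its estimate stayed between 2.47 and 3.20 in 14 alternatives, all with an adjusted p under 0.05. The antisense gene Zeb2os shares 871 exon bases with Zeb2 and was called higher too, with 4.11 and 3.75 normalized counts in the controls and 19.5 and 25.9 in the tamoxifen libraries. Snai1, Prrx1 and Zeb1 also share 206, 127 and 198 exon bases with antisense genes, which were not analysed here. The reads of Zeb2os are few beside those of Zeb2, and without the strand setting they cannot be told apart from Zeb2 reads.

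The ZEB genes therefore came closer to each other in counts, which are not divided by length here, so that the shift of the ratio is read and not its size. Zeb1 had 15.2 and 11.3 times the counts of Zeb2 in the controls and 1.45 and 1.29 times with tamoxifen. On the log2 scale the ratio moved from 3.92 and 3.50 to 0.53 and 0.37, a difference of -3.26 that ranged from -3.47 to -3.04 with any 1 library left out. Most of this shift came from Zeb2, whose log2 fold change was 2.73, and less from Zeb1, at -0.53.

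Prrx1, a paired-related homeobox gene of limb and craniofacial mesenchyme that can drive transition together with TWIST1, had the largest log2 fold change of the 8 genes on the log2(normalized count + 1) scale, whereas Twist2 was slightly higher by fold of means (19.5 against 18.8) and with edgeR and DESeq2. It lies on chromosome 1 from 163041844 to 163142033 on the minus strand. It had 116 and 145 normalized counts in the controls and 2459.1 and 2459.3 in the tamoxifen libraries. The tamoxifen libraries were nearly equal, and the means were 131 ± 20.3 and 2459 ± 0.156 (SD, n = 2 each). The log2 fold change was 4.23 (SE 0.21; limma with BH adjustment, adjusted p = 9.67e-06), with a range of 3.70 to 4.70 over 14 alternatives.

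**Figure D3:**
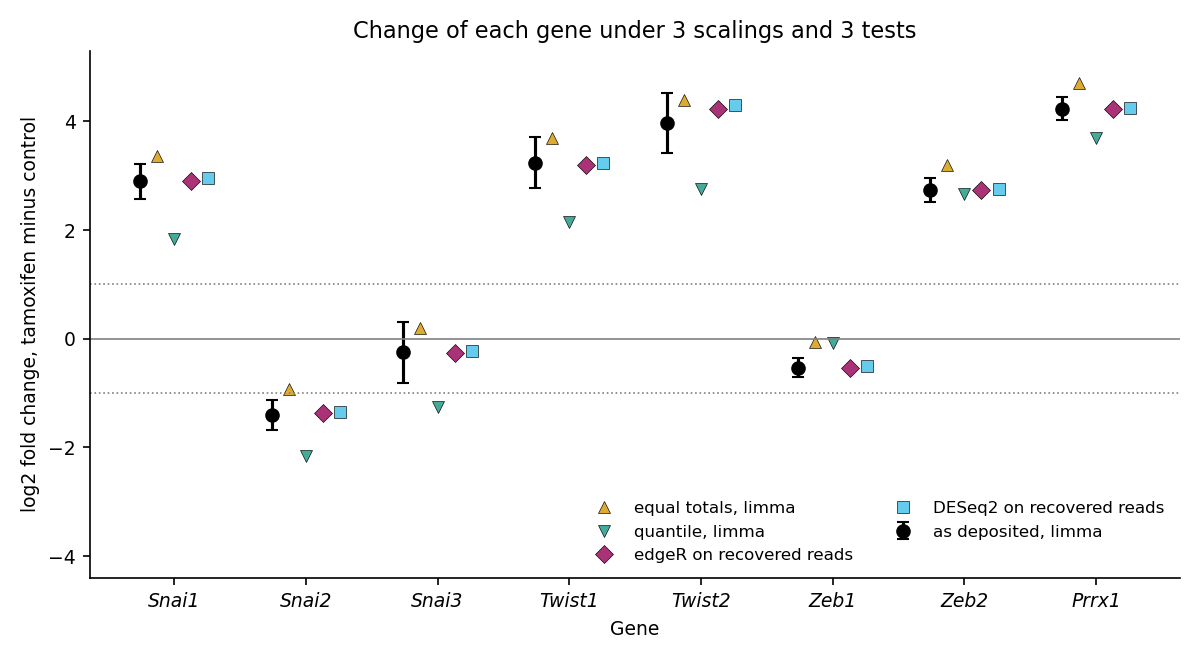
Log2 fold change (tamoxifen minus control) of the 8 genes with limma on the deposited values (black, with standard error), after rescaling to equal totals (yellow), after quantile normalization (green), and with edgeR (purple) and DESeq2 (light blue) on recovered reads. The 5 genes called higher stay above 1 (upper dotted line) throughout, and Snai2 reaches -0.93 with equal totals. Within each setting Snai3 and Zeb1 lie nearest 0, although Snai3 is at -1.26 after quantile normalization.

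Levels of different genes were compared per kilobase of annotated exon, in normalized counts per kilobase. In the controls Zeb1 (580 per kilobase) and Snai2 (344) were far above the rest, followed by Snai1 (42.2), Zeb2 (26.7), Twist1 (18.3), Prrx1 (7.90), Snai3 (6.37) and Twist2 (0.706). In the tamoxifen libraries the order was Zeb1 (405), Snai1 (321), Zeb2 (179), Twist1 (170.0), Prrx1 (149), Snai2 (135), Twist2 (13.8) and Snai3 (5.33). Snai2 moved from rank 2 to rank 6, and Snai1 from rank 3 to rank 2. Not every neighbour in these orders was separated by its libraries. Zeb2 and Twist1 overlapped in both groups, Zeb1 and Snai1 overlapped in the tamoxifen libraries (355 to 454 against 275 to 367), and Snai2 (102 to 168) overlapped there with Prrx1, Twist1 and Zeb2.

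The tamoxifen libraries also differed between each other, in these genes and in markers of cell types. In tamoxifen library 1, Snai2 was 1.66 times, Snai1 1.34 times, Twist2 1.22 times and Twist1 1.15 times its level in tamoxifen library 2, while Zeb1 (0.782), Snai3 (0.780) and Zeb2 (0.697) were lower there and Prrx1 was equal (1.00). All 13 endothelial markers were higher in tamoxifen library 1, with a median ratio of 2.01. The 9 pericyte and smooth muscle markers were all lower there (median ratio 0.508), as were 7 of 10 oligodendrocyte lineage markers (0.777). Fibroblast markers had a median ratio of 1.10, with 5 of 9 genes higher there. Those of the cell cycle also had 1.10, with 7 of 8 higher. Markers of neutrophils (1.37, 8 of 8 genes higher in library 1), lymphocytes (1.37), pluripotency (1.30, 8 of 8) and microglia and macrophages (1.16) also had higher medians in library 1, and those of neural progenitors a lower one (0.537). The control libraries differed as well. In control libraries 1 and 2, summed normalized counts were 33540 and 62660 for pericytes and smooth muscle. They were 2700 and 4208 for microglia and macrophages, and closer for endothelial markers, 1262000 and 1288000. Any gene that differs between 2 libraries is higher in 1 of them, so a shared direction does not tie a gene to a cell type. The share of all tested genes that were higher in tamoxifen library 1 was not taken. The part of these cells was not tested.

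Among markers of other cells, all tested genes of the fibroblast, neutrophil, lymphocyte, pluripotency and cell cycle lists were called higher. So were most of the microglia and macrophage, oligodendrocyte lineage and neural progenitor lists, and few of the pericyte and smooth muscle list. The share over all tested genes was 28.6%. Some genes stand in more than 1 list: Pdgfra is a marker of fibroblasts and of the oligodendrocyte lineage. Col1a1, Col1a2 and Col3a1 are fibroblast markers and also among the mesenchymal genes below. Genes called higher numbered 10 of 10 for fibroblasts (median log2 fold change 3.68, from Islr at 2.85 to Dpt at 6.21), 8 of 8 for neutrophils (8.36, Lcn2 at 3.18 to Mpo at 9.38), 5 of 5 for lymphocytes (3.99, Cd3e at 3.33 to Cd79b at 5.95), 7 of 11 for microglia and macrophages (1.42, Cx3cr1 at 0.10 to Ptprc at 4.25), 3 of 9 for pericytes and smooth muscle (0.81, Rgs5 at 0.01 to Cnn1 at 1.90), 9 of 10 for the oligodendrocyte lineage (3.64, Mag at 1.68 to Sox10 at 5.11), 9 of 10 for neural progenitors (4.80, Nes at -2.12 to Eomes at 5.88), 8 of 8 for pluripotency (8.89, Dppa5a at 8.51 to Sall4 at 9.77) and 8 of 8 for the cell cycle (5.65, Pcna at 1.11 to Ccnb1 at 7.22). Their summed normalized counts ranged from 2545 to 3507 in the controls and from 62200 to 71940 in the tamoxifen libraries for fibroblasts, from 716 to 1218 and from 86160 to 115800 for neutrophils, from 65.8 to 91.4 and from 1861 to 2575 for lymphocytes, and from 2698 to 3363 and from 26990 to 58730 for the oligodendrocyte lineage. They ranged from 2700 to 4208 and from 6640 to 7852 for microglia and macrophages, from 33540 to 62660 and from 43540 to 86600 for pericytes and smooth muscle, from 34570 to 36890 and from 26880 to 34370 for neural progenitors, from 79.4 to 115 and from 42750 to 54960 for pluripotency, and from 3035 to 3573 and from 85320 to 89440 for the cell cycle, while the endothelial sum went from between 1262000 and 1288000 to between 114100 and 224300. The sums did not overlap between groups, except those of pericytes and smooth muscle, and that of neural progenitors, most of which was Nes in the controls, was lower with tamoxifen. No marker tested was at 0 in every library. Neurog2 and Dpt had no reads in the controls, Dpt being at least 18.6-fold higher with tamoxifen, and Cd3e had a counting ratio of 10.8 (exact binomial interval 3.48 to 54.1). Without tamoxifen library 1 or without tamoxifen library 2, 2 of the microglia and macrophage genes and 0 of the pericyte and smooth muscle genes were called higher. These counts were 4 and 0 without control library 1, and 8 and 6 without control library 2. Ptprc, the gene of CD45, had 50.7 and 83.9 normalized counts in the controls and 1423 and 1119 with tamoxifen, although the methods describe the cells as sorted for absence of CD45, which would remove leukocytes. The part of these cells in the rise of Snai1, Twist1, Twist2, Zeb2 and Prrx1 was not tested.

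Most relatives of the 8 genes that are used in other lineages rose as well, where 28.6% of all tested genes were called higher. Of 10 tested, 8 were called higher and 2 were not called, with a median log2 fold change of 3.38; without tamoxifen library 2, 5 were called higher. The 8 were the SNAIL-related neuronal genes Scrt1 and Scrt2, the TWIST-related genes Hand1, Tcf15 and Msc, and the paired-type homeobox genes Prrx2, Shox2 and Alx4. Hand1, a gene of heart and extraembryonic mesoderm, had no reads in either control and 54.2 and 66.1 normalized counts in the tamoxifen libraries, at least 15.3-fold higher. Scx, the tendon factor scleraxis, was the lowest, with 58.9 and 73.8 normalized counts in the controls and 28.2 and 28.8 in the tamoxifen libraries (log2 fold change -1.18; limma with BH adjustment, adjusted p = 0.0716). Ferd3l, which was below the filter, had no reads in the controls and was at least 4.12-fold higher.

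TWIST proteins bind DNA together with E proteins (Tcf3, Tcf4, Tcf12), and Id proteins, which BMP signalling induces, sequester those partners. Of these 7 genes, Tcf4, Id1 and Id3 were called lower, Id4 was called higher and Tcf3, Tcf12 and Id2 were not called. Id1 had 20806 and 23829 normalized counts in the controls and 4242 and 2135 in the tamoxifen libraries (log2 fold change -2.89, SE 0.30; limma with BH adjustment, adjusted p = 0.000159). Both tamoxifen libraries lay far below both controls. Id4, which is expressed in neural progenitors, rose from 136 and 183 to 1147 and 1633 normalized counts, a log2 fold change of 3.11. Id3 had a log2 fold change of -2.55 and Tcf4 of -1.10. E proteins and Ids as a list had a median of -0.81, where 44.7% of all tested genes were called in either direction.

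Most corepressors that SNAIL, TWIST and ZEB proteins recruit were not called. Of 20 genes, Ezh2, Suv39h1 and Prmt5 were called higher and none lower, against 28.6% and 16.0% of all tested genes, and the median log2 fold change was 0.16. The count was 7 with libraries rescaled to equal totals, and 2 without tamoxifen library 1 and without tamoxifen library 2. Ezh2, a methyltransferase of Polycomb repressive complex 2, had 1190 and 1020.05 normalized counts in the controls and 5189 and 5195 in the tamoxifen libraries. Its log2 fold change was 2.24 (SE 0.16; limma with BH adjustment, adjusted p = 3.55e-05). Eed and Suz12, also subunits of that complex, had log2 fold changes of 0.91 and 0.95 with adjusted p-values of 0.00353 and 0.00388 (limma with BH adjustment), under the size limit. Both passed the size limit with equal totals (1.38 and 1.42), with quantile normalization (1.01 and 1.28) and without control library 1 (1.09 and 1.14). The histone deacetylase gene Hdac2 had 0.55 (adjusted p = 0.0135, limma with BH adjustment), and 1.02 with equal totals. At a later day and by real-time PCR, the study reported Hdac2 as the only induced gene of the HDAC family. Among Ezh1, Ezh2, Suz12, Eed and Rbbp4 it reported a decrease of Ezh1. Ezh1 and Rbbp4 are not in this list, and the difference from the values here was not tested. Bmi1, of Polycomb repressive complex 1, had the lowest value, -0.85.

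Genes that set the stability of SNAIL and related proteins moved in both directions, and most were not called. Among all tested genes, 44.7% were called in either direction. Of 14 tested genes, Pak1, a kinase that phosphorylates SNAIL in the nucleus, was called higher, Lats2, a Hippo pathway kinase that keeps SNAIL in the nucleus, and the phosphatase genes Ctdsp1 and Ctdsp2 were called lower, and 10 were not called. Pak1 had 327 and 363 normalized counts in the controls and 2496 and 2397 in the tamoxifen libraries, a log2 fold change of 2.82. Lats2 had 3764 and 3451 against 911 and 637, a log2 fold change of -2.24. Without tamoxifen library 2, 2 genes were called higher. Ctdsp1 and Ctdsp2 had -1.52 and -1.18, and the median of the 14 genes was -0.28.

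Further transcription factors linked to transition were mixed. Foxc2, Gsc, Klf8, Sox9 and Hmga2 were among those called higher, and Foxq1 and Tbx3 were called lower. Without tamoxifen library 1, and likewise without tamoxifen library 2, Foxc2 and Sox9 were not called and Gsc was below the filter, while Klf8 and Hmga2 were still called higher. Hmga2, an architectural chromatin factor of embryonic cells that activates Snai1 and Twist1 in other systems, rose from 60.3 and 118 to 4241 and 3499 normalized counts (log2 fold change 5.50). Foxq1, a forkhead gene, fell from 13485 and 16400 to 3661 and 1493 (log2 fold change -2.67). Gsc had no reads in the controls and was at least 5.45-fold higher, and Tcf21, below the filter, had a counting ratio of 8.15 (exact binomial interval 2.58 to 41.3).

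Epithelial genes, which SNAIL and ZEB proteins repress in transitions, did not fall together. Several had few reads in the controls, such as 2 and 5 for Cldn1 and 2 and 8 for Cldn4. Such genes had little room to fall, so repression could not be judged from them. Of 19 tested, 13 were called higher, 1 lower and 5 were not called, with a median log2 fold change of 1.72. Over all tested genes, 28.6% were called higher and 16.0% lower. Cdh1, the gene of E-cadherin, was chosen for description after its values were seen. It had 41.1 and 58.8 normalized counts in the controls and 6746 and 4447 in the tamoxifen libraries, a log2 fold change of 6.77 (SE 0.29; limma with BH adjustment, adjusted p = 5.97e-06). Krt19, a simple epithelial keratin, had 1 read in the control libraries together and a counting ratio of 340.0 with a wide exact binomial interval, 60.8 to 13500. Ocln, the gene of the tight junction protein occludin, which brain endothelial cells also make, was the single gene called lower, with 24928 and 23805 normalized counts in the controls and 3806 and 1930.2 in the tamoxifen libraries (log2 fold change -3.17; limma with BH adjustment, adjusted p = 0.000103). Without tamoxifen library 1 or without tamoxifen library 2, 6 were called higher. Ovol2, below the filter, had a counting ratio of 18.5 (exact binomial interval 3.06 to 757).

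The E-box of SNAIL and ZEB was frequent in the promoters of these epithelial genes, which were listed because these factors repress them. A high share may therefore come from the choice of the list. Windows were at hand for 14 of the 21 listed genes, not for Cdh1 or Krt19. CAGGTG or CACCTG was found in a RefSeq window of 12 of 14 of them (85.7%), against 22.6% of all genes and 2 of 9 mesenchymal genes (22.2%). Of these 12, 8 were called higher and 3 were not called, and Ocln was the single gene called lower. Over all tested genes, 28.6% were called higher and 16.0% lower. Without the motif, only Cldn1 was tested, and it was called higher. Of the mesenchymal genes, the 2 with the motif were called lower. Of the 7 without it, 5 were called higher and 2 were not called. The part of the motif was not tested. The windows of Cldn4, a claudin gene that had the largest log2 fold change among listed epithelial genes with a window (5.55; 2.74 and 10.01 normalized counts in the controls, 371 and 241 in the tamoxifen libraries), and of Ocln are shown because both hold 2 copies and the genes moved in opposite directions. The Cldn4 window (GRCm38.p6, chr5:134946885-134947184, minus strand) has CACCTG from position -14 and CAGGTG from position 12, and the Ocln window, 1 of 2 overlapping ones (GRCm38.p6, chr13:100552449-100552748, minus strand) has CAGGTG from positions -213 and -68, all in capitals:
Cldn4 promoter: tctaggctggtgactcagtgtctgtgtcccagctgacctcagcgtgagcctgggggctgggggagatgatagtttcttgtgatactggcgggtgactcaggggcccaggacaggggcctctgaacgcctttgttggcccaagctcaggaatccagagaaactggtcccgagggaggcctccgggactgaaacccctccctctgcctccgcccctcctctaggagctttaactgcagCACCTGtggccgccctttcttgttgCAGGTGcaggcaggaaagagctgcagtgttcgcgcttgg
Ocln promoter: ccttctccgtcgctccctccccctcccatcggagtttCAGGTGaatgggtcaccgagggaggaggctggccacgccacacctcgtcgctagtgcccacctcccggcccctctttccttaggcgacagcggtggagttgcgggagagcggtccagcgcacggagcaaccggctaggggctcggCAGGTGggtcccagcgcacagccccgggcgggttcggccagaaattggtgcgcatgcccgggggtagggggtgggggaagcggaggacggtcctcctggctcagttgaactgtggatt
CATATG was found in none of the 14 epithelial genes, and CATCTG or CAGATG in 2.

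Mesenchymal genes that rise in transitions were divided. Of 15 tested, 8 were called higher, 2 lower and 5 were not called, with a median log2 fold change of 2.95. The shares over all tested genes were 28.6% higher and 16.0% lower. The collagen genes Col1a1, Col1a2 and Col3a1, the matrix metalloproteinase genes Mmp2 and Mmp9, and Postn, S100a4 and Cd44 rose. These collagen genes were also counted among the fibroblast markers above, so these lists are not separate observations. Mmp9, also a neutrophil enzyme, had the largest log2 fold change, 7.43, and S100a4 had a counting ratio of 90.1 (exact binomial interval 30.6 to 439). Cdh2, the gene of N-cadherin, had 5578 and 5925 normalized counts in the controls and 5225 and 7548 in the tamoxifen libraries. These groups overlapped, and Cdh2 was not called (log2 fold change 0.13, SE 0.20; limma with BH adjustment, adjusted p = 0.609), with -0.14 when tamoxifen library 2 was left out. The study reported a rise of Cdh2 in cerebral endothelial cells after tamoxifen, by real-time PCR and immunoblotting over several days. The difference from these libraries was not tested. Vim, Fn1, Acta2 and Tagln were not called either, at 0.10, -1.27, 0.71 and -1.43. Sparc (-1.46) and Lef1 (-2.74), both abundant in the control libraries, were called lower; 1 gene was called lower without control library 1, without control library 2 and without tamoxifen library 2, and 4 without the mean-variance trend.

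**Figure D4:**
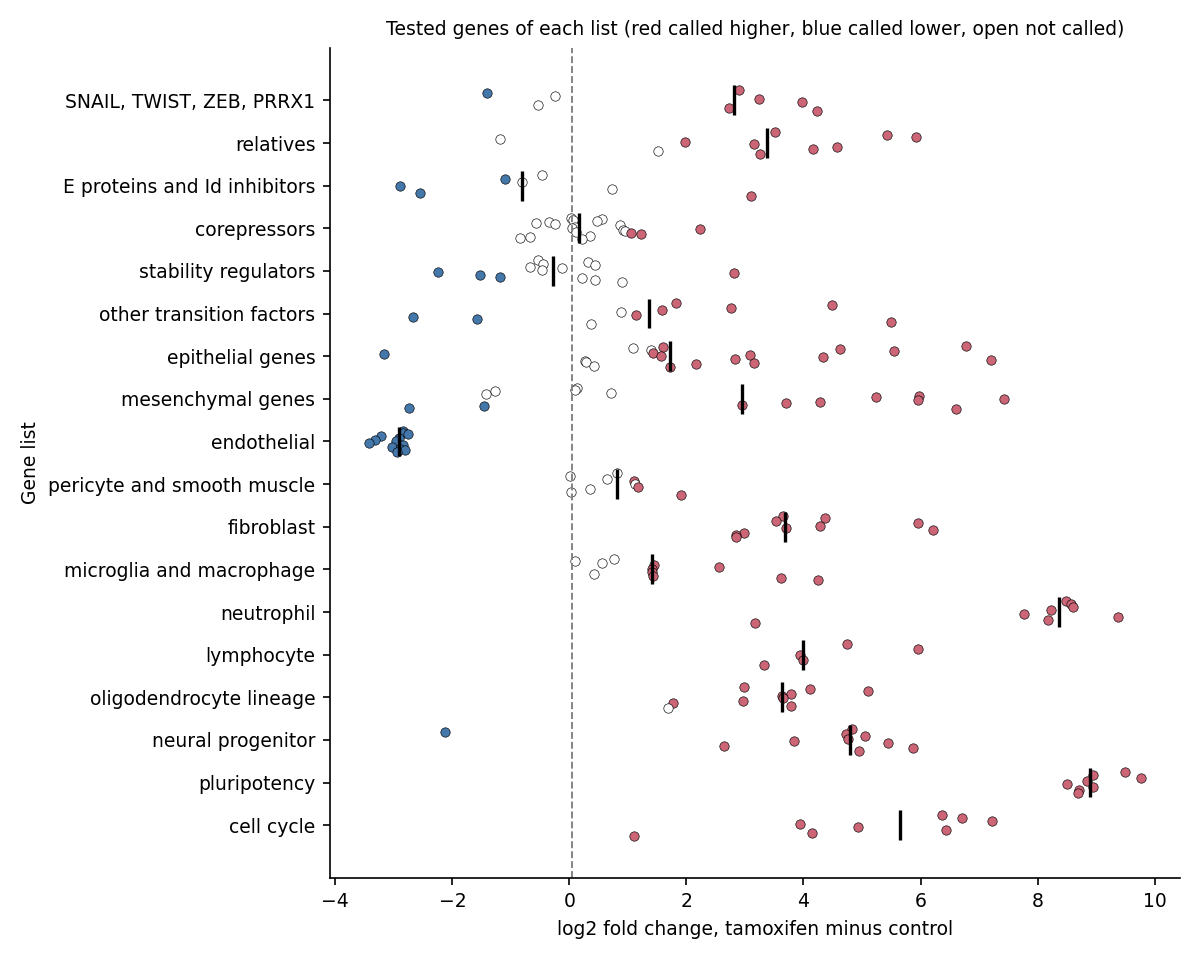
Log2 fold change (tamoxifen minus control, horizontal axis) of every tested gene in each list, with red for genes called higher, blue for called lower and open circles for not called; black bars are list medians and the dashed line is the median of all tested genes, 0.05. The endothelial markers lie together near -2.92, the corepressors lie around 0, and the epithelial and mesenchymal genes both spread widely.

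Among the 20484 other tested genes, those nearest to Snai1 over the 4 libraries, by the Euclidean distance of centred log2(normalized count + 1), were P2rx3 (0.035), Gsto1 (0.064) and Cenpu (0.112). P2rx3 encodes an ATP-gated channel, Gsto1 a glutathione transferase and Cenpu a centromere protein. The genes nearest to Snai2 were Gm45051 (0.087), Fes (0.089), a tyrosine kinase gene of myeloid and vascular cells, and Atp10d (0.090), a phospholipid flippase gene. Fes had 3187 and 3178 normalized counts in the controls and 1448 and 896 in the tamoxifen libraries. With 4 libraries in 2 groups, a short distance mainly says that a gene has the same size of change.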

How the data were processed

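RNA-Seq libraries (KAPA Stranded mRNA-Seq kit) were sequenced by the authors, who aligned the reads with STAR 2.7.10a to GRCm39 and normalized with DESeq2 1.36.0, as the submitters' processing notes name them. The annotation release, strand setting and low-count limit are not given in the sources used here. Each deposited value is a signal for a gene, read counts divided by the authors by a size factor for each library. Reads were recovered by dividing by the smallest step of each column, and 100% of values were whole within 0.001. Totals of 35387438 to 49799321 reads limit precision mainly for genes near 3 reads; intervals cover counting error only. No other column of values was present (0).

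Groups were compared with limma 3.58.1 under R 4.3.3, using lmFit and then eBayes with its trend option, after taking log2(normalized count + 1). Genes entered when their mean reached 10, and p-values were BH-adjusted over all of them. The study describes each row of its heatmap as an independent group of cells pooled from 3 mice. How mice were assigned to the pools is not given in the sources used here. The p-values measure only the spread between these libraries, which may be partly technical. Alternatives changed the pseudocount (0.5 or 5), the filter (none, or a mean of 100), the scaling (equal totals or quantile), the trend (omitted), the design (replicate block), the call rule (adjusted p alone) or the test (edgeR 4.0.16 or DESeq2 1.42.0 run with the reads recovered), or dropped 1 library at a time. Scripts in Python 3.11.15 and R were tested on simulated data.

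The members and gene lists were chosen with earlier results of these data known. Named genes are the 8 factors, the highest and lowest of each list, genes at or under 3 reads in a group, genes the study measured by other assays and the genes nearest to Snai1 and Snai2; Cdh1, Cldn4, Pecam1 and the further called or uncalled genes that the text lists were named after their values were seen. Gene positions and exon lengths came from GENCODE M39, with 24451 genes matched by symbol. Promoter windows came from RefSeq (GRCm38.p6). A withheld result from the list of further transition factors is not reported here.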

Additional observations from a re-analysis of the deposited data

How the results depend on the processing

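Limma with BH adjustment called 9151 genes, and 5934 with a filter at a mean of 100, where fewer genes were tested; with 1 library left out the count ranged from 4979 to 10001, lowest without tamoxifen library 2 and 5811 without tamoxifen library 1. edgeR on recovered reads called 9241 and DESeq2 8739. Scaling moved the split of calls: 64.1% of called genes were higher as deposited, 80.3% with equal totals (7393 higher, 1815 lower) and 45.6% after quantile normalization (4615 higher, 5509 lower), and the median of all tested genes went from 0.05 to 0.54 and -0.23. Of the 8 factors, 6 were called, with 4 to 7 over the alternatives. Snai2 fell short of the size limit with equal totals (-0.93) and ranged from -1.76 to -1.03 with 1 library left out; Twist1 ranged from 2.78 to 3.71. The estimate of Snai3 turned to 0.20 and that of Mgp to 0.08 with equal totals, that of Cdh2 to -0.14 without tamoxifen replicate 2 (up to 0.39 without tamoxifen replicate 1), that of Rgs5 to -0.35 without control replicate 1 and -0.52 without tamoxifen replicate 2, and that of Cx3cr1 to -0.70 after quantile normalization and -0.40 without control replicate 1 (up to 0.60 without control replicate 2). The log2 ratio of Twist1 to Twist2 differed by -0.12 with a pseudocount of 5. The causes were not tested. When a library is left out, the lone library of its group is assumed to vary like the others. Replicate numbers did not pair the libraries (correlation of deviations r = 0.025 across 20485 genes, which are not independent replicates); with the replicate block 9525 genes and 6 factors were called.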
